A study of Mus musculus with 2 samples.

Results

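The cells described here are 4877 droplets whose UMIs of the naive pluripotency genes Zfp42, Klf2, Esrrb and Nr5a2 together reached 10 or more per 10000 gene UMIs of the cell. They were chosen by these measured values, and they are called naive-like cells below. A UMI is a molecular tag that marks 1 captured transcript. A member also had at least 1000 genes, at most 10% of its UMIs from mitochondrial genes, fewer than 3 UMIs of Rhox6 and Rhox9 together, and fewer than 5 UMIs of the collagen and matrix genes Col3a1, Col1a1, Col1a2 and Dcn together. Of 21593 called cells, 16841 met the gene and mitochondrial limits and are called kept cells, so the naive-like share was 29.0% of kept cells (28.3% to 29.7% by the exact binomial method at 95%, counting error only) and 22.6% of called cells. Of 5233 kept cells over the marker threshold, 318 were left out for Rhox6 and Rhox9 and 38 for the collagen and matrix genes.

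The material was 1 mouse cell line, Delmix. The labels name 2 samples of it, epiblast stem cells with no treatment, and embryoid bodies that had been grown from those cells for 2 days. Embryoid bodies are aggregates in which pluripotent cells begin to differentiate. The cells were captured by droplet-based 3′ single-cell RNA sequencing. All barcodes lay in 1 pooled matrix with 1 barcode suffix, and its hashtag names CMO311 and CMO312 match neither sample's label. The matrix was therefore handled as 1 sample: no cell was assigned to the stem cells or the embryoid bodies, and no p-value or standard error is given. Intervals cover counting error only, and no animal, passage or clone was named beyond the line.

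Mouse pluripotent cells occur in more than 1 state. Naive cells resemble the epiblast before implantation and keep a transcription factor network that includes Zfp42, Klf2, Klf4, Esrrb, Nr5a2, Tfcp2l1 and Nanog. Primed cells, the state in which epiblast stem cells are normally cultured, resemble the epiblast after implantation, keep Pou5f1 and Sox2, and express Fgf5, Pou3f1, Otx2 and Dnmt3b. In female cells both X chromosomes are active in the naive state, and the noncoding RNA Xist silences 1 of them as cells leave it.

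Zfp42 encodes a zinc finger protein also called Rex1, Klf2 a Krüppel-like zinc finger factor, Esrrb an orphan nuclear receptor and Nr5a2 a nuclear receptor also called Lrh1. The promoters of Zfp42 and Klf2 are printed here, since these genes gave most of the UMIs that chose the cells. Each window runs from 250 bases before to 50 after the start site in RefSeq GRCm38.p6, with Zfp42 at chr8:43306960-43307259 on the minus strand and Klf2 at chr8:72318812-72319111 on the plus strand. Capitals mark the octamer ATTTGCAT, the recognition word of Pou5f1 and other POU factors.
Zfp42: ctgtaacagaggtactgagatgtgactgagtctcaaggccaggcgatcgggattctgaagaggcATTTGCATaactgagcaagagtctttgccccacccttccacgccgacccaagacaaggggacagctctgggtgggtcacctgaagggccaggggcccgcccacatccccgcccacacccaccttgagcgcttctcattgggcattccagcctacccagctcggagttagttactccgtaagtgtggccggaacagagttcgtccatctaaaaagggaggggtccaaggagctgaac
Klf2: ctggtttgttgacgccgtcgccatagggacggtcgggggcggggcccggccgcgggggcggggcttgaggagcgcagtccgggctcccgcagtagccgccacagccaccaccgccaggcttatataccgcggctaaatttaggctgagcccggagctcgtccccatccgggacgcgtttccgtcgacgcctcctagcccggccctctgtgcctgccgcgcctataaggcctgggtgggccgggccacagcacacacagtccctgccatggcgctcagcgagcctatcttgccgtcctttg
The octamer began 186 bases before the Zfp42 start site, at position -186, on the gene's own strand. The search covered 3 motifs on both strands: ATTTGCAT, which 1.74% of 32851 mouse promoters of the same length held, the nuclear receptor half-site TCAAGGTCA, held by 0.423%, and the Klf element GGGTGTGGC, held by 1.35%. No other match lay in these 2 windows or in the windows of Esrrb and Nr5a2 in the same table. A match is a description of the letters and not a measured binding site.

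The 4 selecting genes themselves were as follows, as a description with no test. Summed over all naive-like cells, Zfp42 stood at 1098 summed counts scaled to 1000000 UMIs (CPM; Poisson 95% interval 1087 to 1108), against 131 CPM in the 11964 other kept cells. Klf2 stood at 896 CPM (887 to 906), against 160 CPM. Esrrb stood at 105 CPM (101 to 108), against 13.1 CPM, and Nr5a2 at 91.1 CPM (88.0 to 94.2), against 14.996 CPM. Zfp42 and Klf2 thus carried most of the marker UMIs of a member. A median naive-like cell held 7 Zfp42 UMIs, 6 Klf2 UMIs and no UMI of Esrrb or Nr5a2, with 15 marker UMIs in all (2 to 77). All 4 genes had a UMI in 1077 members (22.1%), exactly 3 in 2031, exactly 2 in 1611, and only 1 gene had one in 158. Membership rested on fewer than 5 marker UMIs in 205 members (4.20%).

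**Figure D1:**
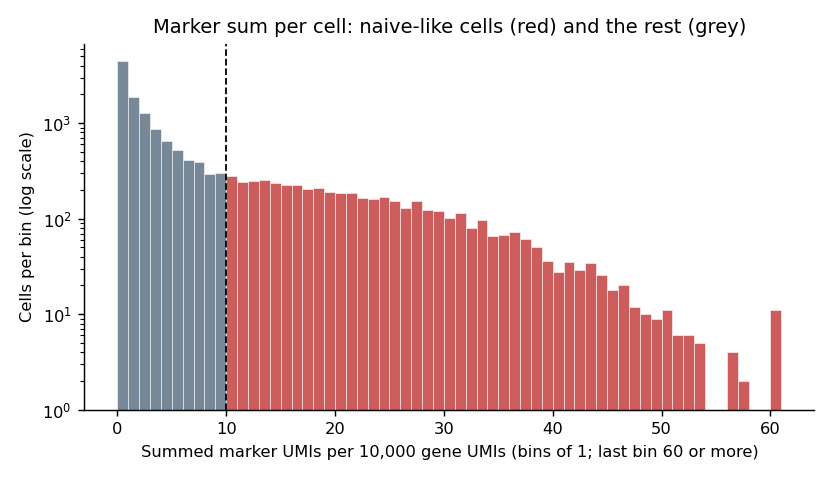
Number of cells (y axis, log scale) in each unit bin of the marker sum per 10000 gene UMIs (x axis) among kept cells that met both exclusions. Naive-like cells are red, other cells are grey, and the dashed line is the threshold of 10, where counts pass from 304 cells just below to 279 just above with no gap.

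The distribution had no trough at the threshold. Just inside it, at 10 to 11 per 10000, lay 279 naive-like cells with 445 CPM of Zfp42, 504.4 CPM of Klf2, 75.4 CPM of Nanog, 27.2 CPM of Fgf5 and 107 CPM of Pou3f1. Just outside it, at 9 to 10, lay 304 cells with 392, 463, 66.4, 22.7 and 153 CPM of the same genes. Both sides had a median of 7 marker UMIs. Kept cells that met both exclusions below the threshold were divided into 3448 intermediate cells (3 to 10 per 10000) and 7606 marker-low cells (under 3).

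To read the markers on molecules that had not chosen the cells, each UMI was put at random, with a chance of 0.5, in a choosing set or a reading set. Naive-like cells picked on the choosing set numbered 4847, and in the reading set they had 1041 CPM of Zfp42, against 158 CPM in other kept cells. Klf2 in the reading set was 849 CPM, against 186 CPM, Esrrb was 96.1 CPM, against 16.6 CPM, and Nr5a2 was 89.6 CPM, against 16.9 CPM. Of the 4847 cells, 3915 (80.8%) reached the threshold again in the reading set. In a second reading, cells were ranked by 3 of the markers and the remaining gene was read in the top 4877. Zfp42 was then 970 CPM, against 190 CPM in the rest, Klf2 791 against 201 CPM, Esrrb 98.8 against 15.5 CPM, and Nr5a2 85.1 against 17.4 CPM. Each marker was thus higher in cells picked without those molecules or without that gene, although both readings come from the same library and are no replicate.

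Against all other kept cells, 147 of 7014 genes with at least 20 CPM on either side were at least 2-fold higher in naive-like cells (2.10%) and 329 were at least 2-fold lower (4.69%). Ratios are on the log2(CPM + 1) scale, and the median over all tested genes was -0.04. Against marker-low cells, 239 of 7016 genes were higher (3.41%) and 351 were lower (5.0%), with a median of -0.06. Against intermediate cells, 62 of 6787 genes were higher (0.914%) and 95 were lower (1.40%), with a median of -0.02. The other kept cells include 524 collagen-gene cells, and the exclusion of collagen UMIs fixes those genes low in members: Col3a1 was 1.91 CPM in naive-like cells, against 92.0 CPM in other kept cells and 1636 CPM in the collagen-gene cells. Mmp3, Ccl2, Ly6a, Ccl7 and Crabp1, also among the 10 lowest against all other kept cells, were likewise high in the collagen-gene cells, at 1250 to 1924 CPM. Genes that are low in members are therefore read below against marker-low cells, which hold none of those cells.

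Genes of the wider naive network, which the rule did not use, were next set against the name naive-like, as a description over the same cells. All 22 listed genes had ratios above 0 to other kept cells and to marker-low cells. Among tested genes, 40.5% of 6346 autosomal and 63.3% of 278 X-linked genes had a ratio above 0 to marker-low cells. Of the 19 with at least 20 CPM in naive-like or other kept cells, 17 were at least 2-fold higher in naive-like cells. Over all tested genes 2.10% were. Of the 19, 9 reached 20 CPM in naive-like cells only and so were bound to be higher there. Of the 10 with 20 CPM in both classes, 8 were at least 2-fold higher. Against marker-low cells 10 of 19 passed through naive-like cells only, and 8 of the other 9 were at least 2-fold higher. Among the transcription factors, Tfcp2l1 was 61.8 CPM in naive-like cells, against 20.1 CPM in intermediate and 7.94 CPM in marker-low cells. Klf4 was 40.2 CPM, against 10.0 and 5.11 CPM, and its paralogue Klf5 was 164 CPM, against 101 and 62.5 CPM. Nr0b1, the corepressor Dax1, was 46.1 CPM, against 13.8 and 3.26 CPM. Tbx3, a T-box factor, was 32.1 CPM, against 10.8 and 12.3 CPM. Klf4 was not most frequent in naive-like cells. With cells thinned to equal depth, 14.8% of collagen-gene cells held a Klf4 UMI, against 7.09% of naive-like cells. Tfcp2l1, Klf5 and Nr0b1 went the other way. Their shares were 1.53%, 6.70% and 1.53% in collagen-gene cells, against 11.6%, 26.8% and 8.14% in naive-like cells.

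Several network genes outside the transcription factors moved as far. Tcl1, a coactivator of Akt kinase, was 46.2 CPM in naive-like cells, against 13.1 CPM in intermediate and 2.61 CPM in marker-low cells, a log2 ratio of 3.71 to marker-low cells. Fbxo15, an F-box protein, was 141 CPM, against 68.0 and 18.9 CPM. Tdh, the threonine dehydrogenase of mouse embryonic stem cells, was 362 CPM, against 181 and 66.2 CPM. Dppa5a, an RNA-binding protein, was 4455 CPM, against 2518 and 1311 CPM. Dppa3, also called Stella, was 176 CPM, against 68.5 and 31.6 CPM. Zfp57, which maintains methylation at imprinted loci, was 70.5 CPM, against 28.3 and 14.0 CPM. The growth factor genes Fgf4, at 56.9 CPM against 32.8 and 21.5 CPM, and Gdf3, at 57.1 CPM against 37.7 and 21.5 CPM, differed less.

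The remaining tested members of the network were Morc1 at 75.7 CPM in naive-like cells, against 9.12 CPM in marker-low cells, Mybl2 at 242 CPM, against 65.5 CPM, Jam2 at 34.7 CPM, against 4.84 CPM, and Pecam1 at 29.5 CPM, against 6.66 CPM. Dppa2 and Dppa4, chromatin factors of early embryos, had the smallest ratios, with log2 values of 0.84 and 0.62 against other kept cells. Prdm14 at 10.8 CPM and Spic at 0.16 CPM fell under the minimum of 20 CPM in naive-like cells and were not tested.

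Core pluripotency genes, which both states express, moved less as a group. Of 9 tested, 2 were at least 2-fold higher in naive-like cells than in other kept cells and none was lower. Over all tested genes 2.10% were higher and 4.69% lower. Nanog was 130 CPM in naive-like cells, against 42.2 CPM in intermediate and 35.4 CPM in marker-low cells, and Sox2 was 328 CPM, against 176 and 101 CPM. Pou5f1 was 622 CPM in naive-like cells, against 579 CPM in intermediate and 512 CPM in marker-low cells, a log2 ratio of 0.28 to marker-low cells. Lin28a, an RNA-binding protein that blocks let-7 maturation, had the opposite sign, with 78.1 CPM against 109 and 131 CPM. L1td1 and Sall4 had log2 ratios of 0.02 and 0.16 to marker-low cells, and Zfp281, Trim28 and Foxd3 had log2 ratios of 0.28, 0.59 and 0.25, Foxd3 from levels under 20 CPM in both.

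Primed epiblast genes were lower, but not all of them. Of 16 tested against marker-low cells, 9 were at least 2-fold lower, none was 2-fold higher, and the median log2 ratio was -1.15. Over all tested genes 5.0% were lower and 3.41% higher. Among them 5 reached 20 CPM in marker-low cells only, and of the 11 with 20 CPM in both classes 5 were at least 2-fold lower. Fgf5, a growth factor of the postimplantation epiblast, was 10.7 CPM in naive-like cells (9.65 to 11.8), against 33.0 CPM in intermediate and 45.9 CPM in marker-low cells. Pou3f1, also called Oct6, was 57.1 CPM, against 167 and 171 CPM. Sox11 was 41.8 CPM, against 108 and 174 CPM. Fst, the activin antagonist follistatin, had the lowest ratio of the list, with 14.1 CPM against 50.6 and 102 CPM; its log2 ratio to other kept cells was -2.45, and -3.25 without called doublets. Lef1, the Wnt pathway factor, was 85.4 CPM, against 159 and 176 CPM, and Cdh2, N-cadherin, was 14.7 CPM, against 27.1 and 56.2 CPM. Sall2, Sox4 and Cldn6 were also at least 2-fold lower than in marker-low cells, with log2 ratios of -2.21, -1.49 and -1.27.

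Other primed genes did not reach 2-fold. Otx2, a homeobox factor used as a primed marker, was 64.4 CPM in naive-like cells, against 83.7 CPM in intermediate and 67.6 CPM in marker-low cells. Utf1 was higher, at 211 CPM against 205 and 155 CPM. Dnmt3b and Dnmt3a, the de novo DNA methyltransferases, were 189 and 51.1 CPM in naive-like cells, against 370 and 96.4 CPM in marker-low cells. Nodal was 27.8 CPM, against 34.9 CPM in marker-low cells, and Zic2 and Zic5 had log2 ratios of -0.82 and -0.30.

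**Figure D2:**
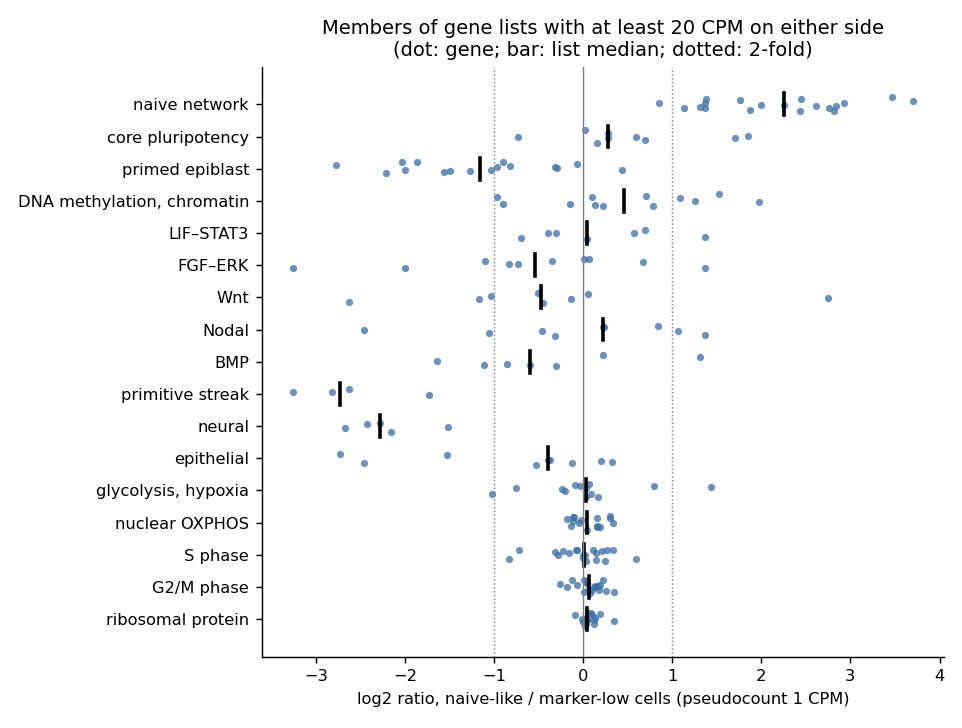
Log2 ratio of CPM, naive-like over marker-low cells (x axis, pseudocount 1 CPM), for each tested member of 17 gene lists (rows). Each dot is 1 gene, the black bar is the list's median, and dotted lines mark 2-fold; the naive network has the highest median (2.25) and the primitive streak list the lowest (-2.73), in part because a gene that reaches 20 CPM in only 1 of the classes is bound to lie on that side.

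Of 12 tested regulators of DNA methylation and chromatin, 4 were at least 2-fold higher in naive-like than in marker-low cells and none was 2-fold lower. Over all tested genes 3.41% were higher and 5.0% lower. Among the 4, Tet2 reached 20 CPM in naive-like cells only and so was bound to be higher. Of the 11 with 20 CPM in both classes 3 were at least 2-fold higher. Tet1, which oxidises 5-methylcytosine, was 422 CPM in naive-like cells, against 254 CPM in intermediate and 146 CPM in marker-low cells, and Tet2 was 46.9 CPM, against 22.2 and 11.2 CPM. Dnmt3l, the cofactor of the de novo enzymes, was 119 CPM, against 95.6 and 49.1 CPM, and Jarid2, a Polycomb cofactor, was 830 CPM, against 619 and 392 CPM. Dnmt1 and Uhrf1, which copy methylation at replication, had log2 ratios of 0.10 and 0.22.

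Signalling lists had members at least 2-fold off against marker-low cells, where 3.41% of all tested genes were higher and 5.0% lower. A gene that reached 20 CPM in only 1 class was bound to lie on that side. Among genes with 20 CPM in both classes, 1 of 8 in the FGF list was higher and 1 lower. The Wnt list had none of 6 higher and 2 lower, and the Nodal list 1 of 7 higher and 1 lower. The BMP list had none of 5 higher and 1 lower, and the LIF and STAT3 list 1 of 6 higher and none lower. In the FGF list 1 of 10 tested genes was higher and 3 were lower. Fgf4, described above, was the higher one, and Fgf5 was among the lower ones. Fgf8 was 12.8 CPM in naive-like cells, against 132 CPM in marker-low cells; its log2 ratio to other kept cells was -2.76, and -4.13 without called doublets. Dusp6, a phosphatase induced by ERK, was 22.3 CPM, against 49.0 CPM. In the Wnt list 1 of 8 tested genes was higher and 3 were lower, Lef1 among them. Notum, a secreted Wnt inhibitor, was 21.8 CPM, against 2.38 CPM, whereas Wnt3 was 3.30 CPM, against 25.7 CPM, and Tcf7l2 was 21.0 CPM, against 48.6 CPM. In the Nodal list 2 of 9 were higher, Gdf3 being the other, and 2 were lower. Pcsk6, a proprotein convertase, was 29.1 CPM, against 13.4 CPM, whereas Lefty1, a Nodal inhibitor, was 138 CPM, against 289 CPM. In the BMP list 1 of 7 was higher and 2 were lower. Bmp4 was 30.2 CPM, against 11.5 CPM, Id2 was 31.8 CPM, against 102 CPM, and Bambi, a BMP pseudoreceptor, was 9.81 CPM, against 22.5 CPM. In the LIF and STAT3 list 1 of 7 passed 2-fold, the kinase gene Pim3, at 77.4 CPM against 29.3 CPM, and Lifr, the LIF receptor, stood at 15.8 CPM, against 5.58 CPM, levels under the minimum of 20 CPM.

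No primitive streak, neural, mesoderm or endoderm list gene reached 20 CPM in naive-like cells. Of 14 primitive streak genes 13 had ratios below 0 to marker-low cells, and of 13 neural genes 12 had. Of 6346 tested autosomal genes 40.5% had ratios above 0, so a ratio below 0 was also the more common sign among these. The 4 streak and 5 neural genes that could be tested reached 20 CPM in marker-low cells only and so were bound to be lower in naive-like cells. Among them T, the streak factor brachyury, was 4.58 CPM in naive-like cells against 38.4 CPM in marker-low cells, and Eomes was 8.59 CPM against 30.9 CPM. Meis2 was 14.8 CPM against 99.5 CPM, and Nes, the filament protein nestin, was 10.3 CPM against 49.8 CPM. In the epithelial list the keratin genes Krt8, at 11.5 CPM against 81.8 CPM, and Krt18, at 7.28 CPM against 44.6 CPM, were lower. Both reached 20 CPM in marker-low cells only and so were bound to be. Of the 5 epithelial genes with 20 CPM in both classes 1 was at least 2-fold lower and none was higher. Among all tested genes 5.0% were lower and 3.41% higher. The epithelial adhesion gene Epcam was 333 CPM against 364 CPM. The mesoderm and endoderm list genes were also under 20 CPM in marker-low cells. Markers of macrophages summed to 13.4 CPM in naive-like cells, against 78.7 CPM in intermediate and 130 CPM in marker-low cells over 9 genes, and those of fibroblasts or feeders summed to 199 CPM over 11 genes, against 124 and 155 CPM. Of that fibroblast sum 187 CPM was Spp1, which pluripotent cells can express, and Col1a1 was 2.43 CPM. The part of such cells or their RNA in any ratio was not tested.

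Housekeeping programmes differed little. None of 20 S phase, 20 G2/M, 15 nuclear oxidative phosphorylation or 18 ribosomal protein genes was 2-fold off between naive-like and other kept cells. Among all genes tested between these classes 2.10% were higher and 4.69% lower. The list medians were 0.05, 0.12, 0.09 and 0.04. Of 13 tested glycolysis genes 1 was higher and 1 lower against marker-low cells, where 3.41% of all tested genes were higher and 5.0% lower. The lower one reached 20 CPM in marker-low cells only and so was bound to be lower. Slc2a3, the glucose transporter Glut3, was 460 CPM in naive-like cells, against 229 CPM in intermediate and 169 CPM in marker-low cells, and the lactate transporter Slc16a3 was 17.4 CPM, against 31.7 and 36.4 CPM. Ldha, lactate dehydrogenase, was 522 CPM in naive-like cells, against 808 and 879 CPM. Against marker-low cells Tdh was the only 1 of 12 genes of threonine and one-carbon metabolism past 2-fold. Among imprinted genes Peg3 was 81.1 CPM, against 253 CPM in marker-low cells, and the Dlk1 to Dio3 noncoding genes Meg3 and Rian were 959 and 396 CPM, against 1575 and 670 CPM.

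Among genes of 50 CPM or more in naive-like cells outside these lists, the highest ratio to other kept cells belonged to Mylpf, a myosin light chain gene of skeletal muscle, at 270 CPM in naive-like cells against 70.8 CPM in intermediate and 19.7 CPM in marker-low cells. Ntn1, the secreted guidance factor netrin-1, was 140 CPM, against 45.2 and 15.2 CPM. Manba, lysosomal beta-mannosidase, was 129 CPM, against 45.1 and 17.1 CPM. Enox1 was 234 CPM, against 103 and 30.2 CPM, Septin1, a cytoskeletal GTPase gene, was 64.5 CPM, against 21.3 and 13.4 CPM, and Ooep, known from oocytes, was 280 CPM, against 123 and 47.9 CPM. Tfap2c, a factor of naive, trophoblast and germ cells, was 78.5 CPM, against 22.9 and 7.27 CPM. Other germline list genes past 2-fold against marker-low cells were Nanos3 at 26.7 CPM against 4.27 CPM and Hormad1 at 49.4 CPM against 12.8 CPM. Prdm1, at 26.1 CPM against 9.63 CPM, and Rhox5, at 179 CPM against 79.0 CPM, also passed. In this list 5 of 6 tested genes passed upward and none downward, against 3.41% and 5.0% over all tested genes. Tfap2c, Nanos3, Hormad1 and Prdm1 reached 20 CPM in naive-like cells only and so were bound to be higher. Of the 2 with 20 CPM in both classes 1 passed, Rhox5. Genes such as Ddx4 and Dazl, which mark later germ cells, stood at 9.02 and 3.598 CPM in naive-like cells, under the minimum.

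The nearest neighbours on the other side of an exclusion were the 386 Rhox6/Rhox9 cells, which had a median marker sum of 17.3 per 10000, against 20.7 in naive-like cells. Their Zfp42, Klf2, Esrrb and Nr5a2 levels were 748, 798, 89.6 and 75.5 CPM. Naive-like cells had less Dppa3 (176 CPM, against 416 CPM), Tfap2c (78.5 CPM, against 168 CPM) and Rhox5 (179 CPM, against 483 CPM) than Rhox6/Rhox9 cells. They had more Zfp57 (70.5 CPM, against 22.0 CPM), Ntn1 (140 CPM, against 49.9 CPM) and Enox1 (234 CPM, against 89.3 CPM). Other genes high in naive-like cells were about as high in Rhox6/Rhox9 cells and so do not set the members apart from them: Mylpf was 270 CPM, against 315 CPM, Ooep 280 CPM, against 298 CPM, Fbxo15 141 CPM, against 146 CPM, and Nanog 130 CPM, against 163 CPM. The naive network list summed to 6443 CPM in naive-like cells, against 7845 CPM, of which Dppa5a gave 4455 and 5829 CPM. Rhox6 and Rhox9 themselves, at 10.6 and 8.12 CPM in naive-like cells, were limited by the rule.

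Along the marker sum, levels changed from bin to bin, and where they changed differed between genes. The 8 bins, from 0 through above 0 to 3, 3 to 5, 5 to 10, 10 to 15, 15 to 20, 20 to 30, and 30 or more per 10000, held 4171, 3435, 1530, 1918, 1261, 1056, 1549 and 1011 cells, so the last 4 bins are the naive-like cells. Nanog was 37.6, 33.5, 34.2, 47.8, 88.0, 121, 145 and 179 CPM in these bins, flat at first and higher from the fourth bin on. Tdh was 51.0, 79.7, 145, 206, 291, 344, 402 and 421 CPM, higher in every next bin. Pou3f1 was 152, 188, 177, 160, 98.3, 67.1, 32.4 and 24.95 CPM, flat below the threshold and lower above it. Fgf5 was 45.9, 45.9, 38.6, 29.1, 20.3, 10.3, 5.55 and 5.32 CPM. Pou5f1 stayed between 482 and 630 CPM. Otx2 stayed between 59.4 and 84.4 CPM, with its highest level at 5 to 10. The share of cells that a doublet caller marked was 5.44%, 12.02%, 17.3%, 29.8%, 30.8%, 23.5%, 10.4% and 2.47% in the same order, highest on either side of the threshold; its part in the graded levels there was not tested.

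**Figure D3:**
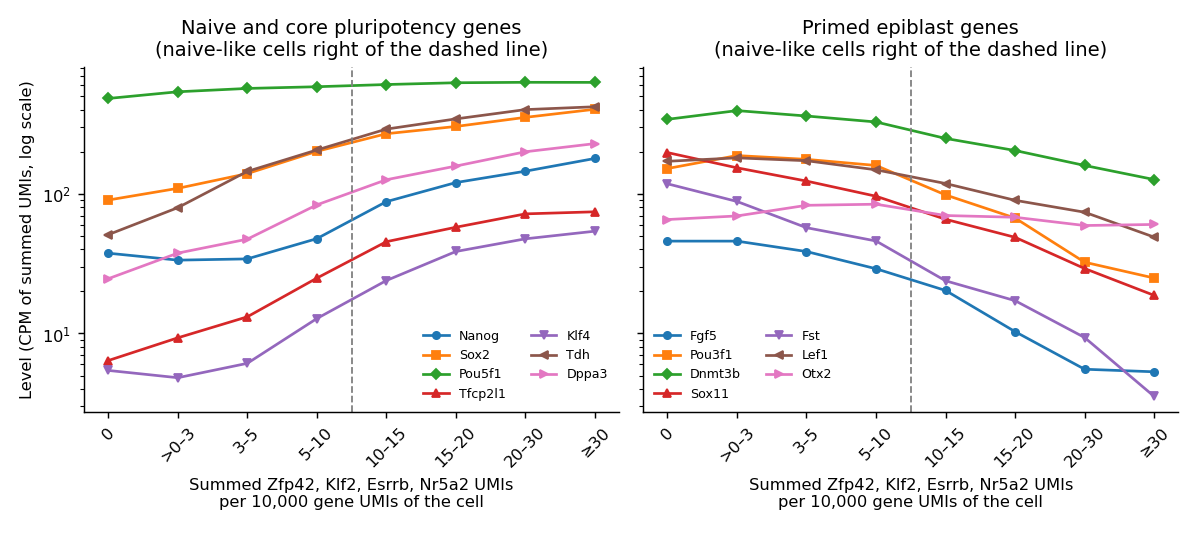
CPM of summed UMIs (y axis, log scale) in 8 bins of the marker sum (x axis, low to high) for 7 naive or core genes (left) and 7 primed genes (right), among kept cells that met both exclusions; naive-like cells lie right of the dashed line. Nanog reaches 179 CPM and Fgf5 5.32 CPM in the last bin, while Pou5f1 and Otx2 stay nearly level.

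Within the naive-like cells, 14 of 6676 tested genes were at least 2-fold higher at a marker sum of 30 or more than at 10 to 15, and 90 were at least 2-fold lower. The first number includes the 4 selecting genes. Called doublets made up 2.47% of cells at 30 or more and 30.8% at 10 to 15, and their part in these differences was not tested. Klf4 was 54.0 CPM at 30 or more and 23.9 CPM at 10 to 15, Mylpf 367 and 177 CPM, Nanog 179 and 88.0 CPM, Tubb3, a tubulin gene, 122 and 59.1 CPM, and S100a13, a calcium-binding protein gene, 52.6 and 19.6 CPM. Among genes of 50 CPM or more at 10 to 15, the largest differences downward were Pim2, a kinase gene, at 22.6 and 107 CPM, Pou3f1 at 24.95 and 98.3 CPM, Hs6st2, a heparan sulfate sulfotransferase gene, at 29.8 and 114 CPM, Sox11 at 18.8 and 65.8 CPM, and Xist at 37.4 and 121 CPM. Zscan4d, a gene of the early cleavage embryo that rare embryonic stem cells express, was 1.03 CPM at 30 or more and 10.7 CPM at 10 to 15, against 33.5 CPM in cells at 5 to 10.

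Single cells gave sparse counts. Over 4780 members thinned to 2000 UMIs, Spearman correlations with the marker sum were computed for 5297 genes. The 8 non-marker genes with the highest values were Enah, Eif2s2, Hsp90aa1, Apoe, Dppa5a, Nanog, Chchd10 and Mylpf, from 0.12 to 0.09, and at such sparse counts values this weak are no finding either way. The most dispersed genes among the members were the nuclear RNA Malat1, with a variance of 9.68 times its mean, the metallothionein gene Mt1 at 5.07 and Dppa5a at 3.52, against a median of 1.03 over genes. Nanog had a UMI in 2568 members (52.7%). Members with 3 or more Nanog UMIs, 556 cells, had 1294 CPM of Zfp42 and 42.7 CPM of Pou3f1, against 980 and 67.0 CPM in the 2309 with none; their median depths were 9022 and 5996 UMIs, so depth also differed between them.

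Clusters found without the 4 markers and without cell cycle genes placed 79.2% to 81.2% of naive-like cells in 1 cluster over 4 random seeds, and 78.0% to 79.2% of that cluster were naive-like cells. These clusters still used genes that move with the markers in the same cells, so they are no independent evidence. With the first seed, 3884 members lay there with a median marker sum of 22.6 per 10000. A second cluster held 593 members with more Pou3f1 (128 CPM, against 38.4 CPM in the first) and Dnmt3b (271 CPM, against 166 CPM), a median depth of 8743 UMIs and 53.6% called doublets. One further cluster held 188 members with a median of 2546 UMIs, 8.36% mitochondrial UMIs and 17851 CPM of Malat1, against 6752 UMIs, 3.22% and 6536 CPM in the first cluster. In those 188 cells Nr5a2 was 298 CPM and Esrrb 226 CPM, against 95.1 and 113 CPM in the first cluster, while Klf2 was 377 CPM, against 945 CPM; the part of depth and RNA quality in this was not tested.

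With every cell thinned to 2000 UMIs, which left out 97 naive-like cells that were shallower, 82.0% of naive-like cells had a Zfp42 UMI (exact binomial 95% interval 80.8% to 83.0%) and 80.1% a Klf2 UMI. The corresponding shares were 34.7% and 46.7% in intermediate cells and 8.02% and 6.71% in marker-low cells. Among genes outside the rule, Nanog had a UMI in 21.5% of naive-like cells (20.3% to 22.7%), against 7.23% in intermediate and 6.56% in marker-low cells. Mylpf had one in 32.4%, against 9.94% and 3.40%, and Tdh in 47.5%, against 25.6% and 11.03%. Pou3f1 had one in 8.56% of naive-like cells, against 24.2% and 23.8%, and Fgf5 in 1.57%, against 7.92% in marker-low cells. The unthinned shares in naive-like cells were 96.2% for Zfp42, 52.7% for Nanog and 6.29% for Fgf5.

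**Figure D4:**
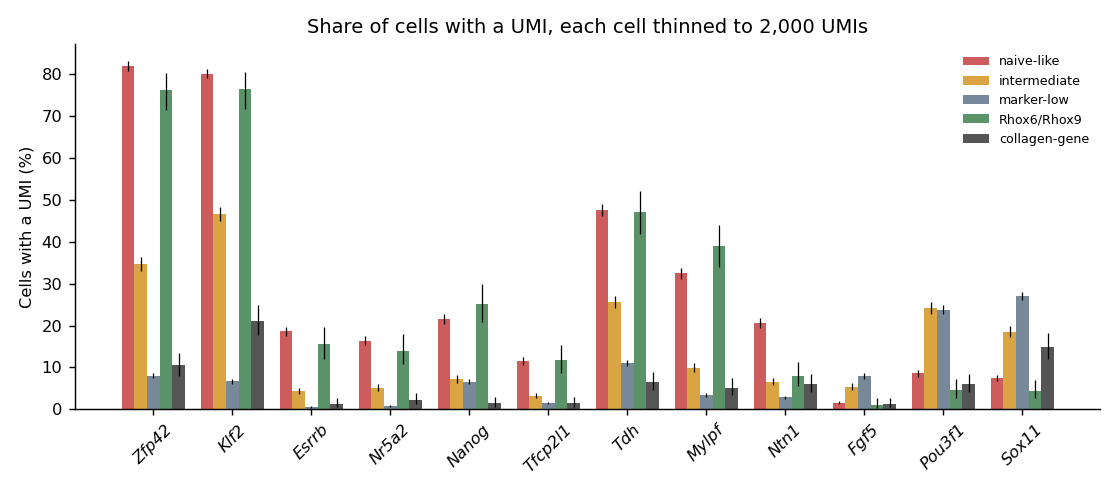
Percent of cells with at least 1 UMI of each of 12 genes (y axis) after thinning every cell to 2000 UMIs, for 5 classes of kept cells (colours, naive-like cells first). Error bars are exact binomial 95% intervals, counting error only; naive-like cells reach 82.0% for Zfp42, against 8.02% in marker-low cells, and 1.57% for Fgf5, against 7.92%.

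Free RNA was read in droplets that held no called cell. Those of 150 to 300 UMIs numbered 72027 and held 523 CPM of Zfp42, 416 CPM of Klf2, 83.4 CPM of Nanog and 200 CPM of Mylpf, levels between those of naive-like and intermediate cells. Collagen-gene cells, which by their fibroblast genes should lack Zfp42 and Nanog, had a Zfp42 UMI in 10.5% of thinned cells and a Nanog UMI in 1.53%, beside a Klf2 UMI in 21.1% and an Fgf5 UMI in 1.34%, at a median unthinned depth of 7381 UMIs, against 6801 in naive-like cells. Of the collagen-gene cells 23.1% were called doublets, and the part of doublets or of free RNA in their shares was not tested. The part of free RNA in the Fgf5 share of naive-like cells or in the levels of intermediate cells was not tested.

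X-linked expression differed along with the marker sum, a comparison chosen after earlier values were seen. Xist was 75.9 CPM in naive-like cells, against 197 CPM in intermediate and 290 CPM in marker-low cells, and its antisense partner Tsix was 116 CPM, against 72.1 and 55.5 CPM. Xist and Tsix overlap, and strand handling in the counting is not given in the sources used here. UMIs of 1033 X-linked genes, leaving out the Xist region and the Rhox genes, came to 5.89 per 100 autosomal UMIs in naive-like cells (5.88 to 5.90), against 5.64 in intermediate and 5.12 in marker-low cells. In the 8 bins of the marker sum, from low to high, the ratio was 4.94, 5.28, 5.56, 5.70, 5.82, 5.86, 5.93 and 5.96. Of 278 tested X-linked genes 63.3% had a ratio above 0 between naive-like and marker-low cells, with a median log2 ratio of 0.09, against 40.5% of 6346 autosomal genes and a median of -0.06.

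**Figure D5:**
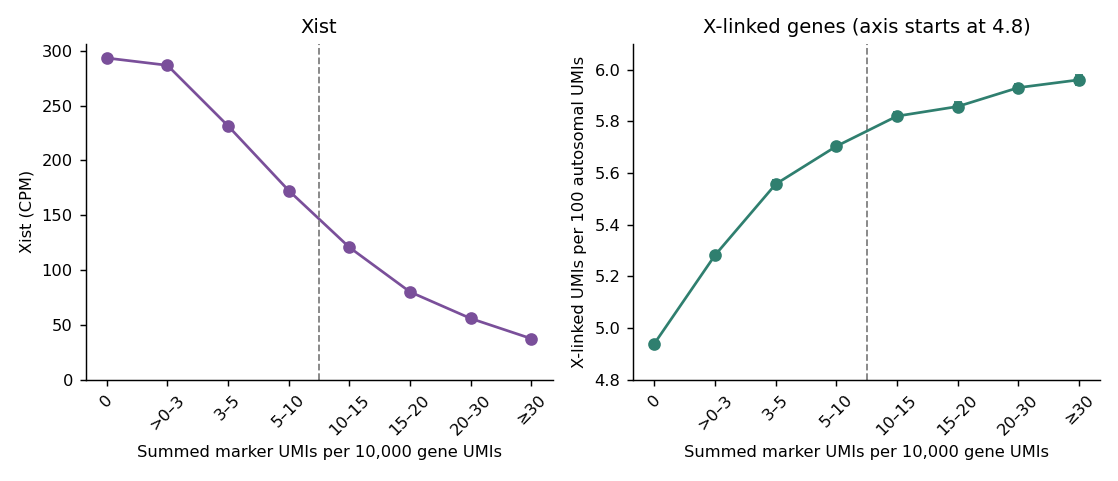
Xist level in CPM (left) and X-linked UMIs per 100 autosomal UMIs (right, axis from 4.8, Poisson 95% intervals smaller than most points) in 8 bins of the marker sum, low to high; naive-like cells lie right of the dashed line. Xist is 37.4 CPM and the X-linked ratio 5.96 in the last bin, against 294 CPM and 4.94 in the first.

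The X-linked ratio also followed Xist within each class. Naive-like cells with 3 or more Xist UMIs (310 cells) had 5.30 X-linked UMIs per 100 autosomal UMIs, against 5.98 in the 3808 naive-like cells with none. Marker-low cells with 3 or more had 4.29 (1768 cells), against 5.50 in the 5052 with none. These splits are by raw UMIs and their depths differed, with medians of 8996 and 6580 UMIs in the naive-like cells with 3 or more and with none, and 7089 and 5909 UMIs in the marker-low cells. Among cells with no Xist UMI, naive-like cells were thus at 5.98 and marker-low cells at 5.50. Without called doublets the ratio was 5.94 in naive-like cells and 5.11 in marker-low cells. The Y-linked genes Eif2s3y, Uty and Kdm5d had 2, 3 and 3 UMIs among the 36691881 UMIs of naive-like cells, against 107, 143 and 27 in the collagen-gene cells. Ddx3y, a Y-linked gene with the close X-linked copy Ddx3x, had 124 UMIs in naive-like cells (3.38 CPM), against 159 in marker-low cells (3.13 CPM) and 157 in the collagen-gene cells (34.5 CPM); how reads of the copies were divided was not tested.

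The hashtags did not separate the members. Median UMIs per naive-like cell were 1125 for CMO311 and 337 for CMO312, against 830 and 340 in droplets without a cell, and the deposited assignment left 4868 of the 4877 members unassigned, with 7 given to CMO311 and 2 to CMO312. How naive-like cells divide between the epiblast stem cells and the embryoid bodies could therefore not be read.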

How the data were processed

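The deposited table held raw UMI counts per gene and barcode, which the authors made, per the file headers, in Cell Ranger 8.0.1; the submitters' processing notes also name Seurat, and the genome build is not given in the sources used here. A second deposited table gave assignment probabilities as fractions, made by the authors, and was used only for called cells and tag calls. Cells were kept from 1000 genes upward if mitochondrial genes gave no more than 10% of UMIs (median 6473 UMIs). Counts were summed per class, scaled to CPM and compared as log2 ratios with a pseudocount of 1 CPM; a gene counted as higher or lower at 2-fold or more with at least 20 CPM on 1 side. This step was tested on simulated counts with changes larger than 2-fold and Poisson noise only. That cannot show how calls near 2-fold or near 20 CPM behave in these cells. With 1 pooled sample no test was made. Intervals are exact (95%), counting error only.

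Scrublet (scanpy 1.11.5, expected rate 0.1, exact neighbours) marked 2474 kept cells as doublets, which stayed in. Its default approximate search marked fewer. Called doublets were 16.9% of naive-like, 24.2% of intermediate and 8.41% of marker-low cells. Leiden clusters (igraph 0.11.9, resolution 0.5, 2000 variable genes, 30 components, 15 exact neighbours) replaced an approximate search whose main cluster moved with numerical settings. Python 3.11.15, numpy 2.4.6, scipy 1.17.1, scikit-learn 1.9.0 and pandas 2.3.3 were used. Chromosomes came from GENCODE vM21 by gene ID (32012 of 33696 IDs matched).

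The members and lists were chosen with earlier results of these data known. Genes were named by rule: the 4 markers, every naive, core and primed list gene at 20 CPM or more, up to 4 members of each other list, the 15 highest and 10 lowest genes at 50 CPM or more, and the 8 best correlated with the marker sum; a few list genes count in the list totals but are not reported here by name. The following were chosen after their values were seen: genes under 20 CPM, further list members, the genes set against Rhox6/Rhox9 cells, the X-linked, Y-linked, Xist and Nanog splits, dispersion, the comparison of 30 or more with 10 to 15, the counts of genes at 20 CPM in both classes, members by cluster, and the genes in the share and bin plots. Shorter forms of the first 2 motifs were also searched and are not reported.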

Additional observations from a re-analysis of the deposited data

How the results depend on the processing

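Naive-like cells made up 29.0% of kept cells, and this share moved with the threshold: 40.3% at a marker sum of 5, 21.5% at 15 and 15.2% at 20 per 10000. It was 27.7% with at least 5 marker UMIs in the cell, 28.2% without called doublets and 30.1% with limits of 500 genes and 20% mitochondrial UMIs. The 147 genes higher than in other kept cells became 204 without called doublets, 194 at a minimum of 10 CPM and 81 at 50 CPM. They became 62 against intermediate cells and 239 against marker-low cells. The 329 lower genes became 419 without called doublets, 540 at 10 CPM, 133 at 50 CPM and 95 against intermediate cells. Of 35 named genes followed under 19 alternatives, 29 were at least 2-fold off. Of their 551 values 550 kept their sign and 538 kept 2-fold or more. The exception in sign was Zscan4d, with a log2 ratio of 0.13 at a marker sum of 5 and -1.65 at 10. The threshold of 5 takes in the cells at 5 to 10, where the Zscan4d level was highest. Part of this agreement was bound to occur. The minimums of 10 and 50 CPM change which genes are tested but no ratio, so values under them equal the main values. The 29 genes also include Zfp42, Klf2, Esrrb and Nr5a2, which chose the cells and so were bound to be higher. Only readings with that gene left out of the sum, or on UMIs that had not chosen the cells, are free of this. Depth limits genes under 20 CPM and the shares of Esrrb and Nr5a2, which had no UMI in the median member. No paired analysis was possible because the cells form 1 pooled sample.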
